A study of Mus musculus with 6 samples.

Results

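Fibroblast growth factor (FGF) signalling was followed in sorted mouse keratinocytes through 10 genes, the ligands Fgf1, Fgf2, Fgf5, Fgf7, Fgf10, Fgf18 and Fgf22 and the receptors Fgfr1, Fgfr2 and Fgfr3. Their probes were picked by name, through accession or description, and no measured value entered that rule. The genes were chosen with earlier results of these data known. All 10 were found, each as 1 probe with 1 spot per array, and all 10 passed the filter on dim probes, out of 20070 genes and unnamed probes tested. The tested cells were alpha6+CD34+ keratinocytes, which the labels call stem and progenitor cells, and they were set against alpha6+CD34- keratinocytes, called basal cells. Both populations were sorted by flow cytometry from trypsin-treated skin of mice 7 weeks old, in 3 biological replicates, and no genotype, strain, sex, treatment or pooling of animals is given. Each replicate was read on 2 arrays that carried both populations, one in Cy3 and the other in Cy5, with the dyes exchanged on the second array, so n = 3 throughout. CD34 is a surface protein of hair follicle bulge stem cells in mice, and the alpha-6 integrin anchors basal keratinocytes to the basement membrane.

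FGFs are secreted signals that bind tyrosine kinase receptors together with heparan sulfate, and the receptors pass the signal on through adaptor proteins to the MAP kinase cascade. In skin, Fgf7 and Fgf10 are made mainly by dermal cells and act on the epithelial splice form of Fgfr2 in keratinocytes. Fgf18 is known from the bulge of resting follicles, and Fgf5 from the end of the growth phase of hair. The arrays do not tell splice forms of the receptors apart as far as the files say, and the sequences of their probes were not used here.

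The promoter sequences of Fgf18 and Fgfr2 are shown because these genes had the largest rise and the only fall that passed among the 10. Both windows are from RefSeq on GRCm38.p6, run 5′ to 3′ from 250 bases before to 50 bases after the listed start, and lie on the minus strand, with every CpG in capitals. The Fgf18 window is chr11:33147351-33147650 and the Fgfr2 window chr7:130266759-130267058.
Fgf18: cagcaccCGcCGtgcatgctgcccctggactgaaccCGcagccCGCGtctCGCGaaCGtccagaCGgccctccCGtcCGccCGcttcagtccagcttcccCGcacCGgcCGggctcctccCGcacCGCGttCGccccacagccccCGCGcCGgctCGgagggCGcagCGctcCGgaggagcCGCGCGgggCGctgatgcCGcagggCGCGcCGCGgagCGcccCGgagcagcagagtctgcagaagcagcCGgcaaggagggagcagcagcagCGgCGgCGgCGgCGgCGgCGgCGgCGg
Fgfr2: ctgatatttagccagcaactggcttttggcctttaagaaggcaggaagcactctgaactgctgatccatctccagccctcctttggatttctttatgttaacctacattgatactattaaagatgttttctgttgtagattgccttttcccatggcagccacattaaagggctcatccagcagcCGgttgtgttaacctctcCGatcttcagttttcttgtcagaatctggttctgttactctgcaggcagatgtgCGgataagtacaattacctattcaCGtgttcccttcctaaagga
The Fgf18 window is 78.7% G and C with 47 CpG, and the Fgfr2 window 43.7% with 4 CpG, against medians of 52.7% and 7 CpG over all 32851 windows. RefSeq windows were used for 8 of the 10 genes, with any windows on an excluded chromosome removed before the count. Both strands were searched for 4 short motifs of factors known from the bulge. The letters CTTTGA, read by TCF and LEF factors, occur in 16.0% of all windows. The letters TAATTA, read by homeodomain factors such as Lhx2, occur in 5.29% of them. The letters AGGTGT, read by T-box factors, occur in 13.7%, and the letters TGGAAA, read by NFAT factors, in 21.4%. The Fgf18 and Fgfr2 windows held 0 matches to any of these, which says only that these letters are not there.

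The comparison asked which FGF genes differed between CD34+ and CD34- keratinocytes. Fgf18 was far higher in CD34+ cells, Fgf1 was slightly higher, Fgfr2 was lower, and the other 7 genes did not pass the test. Ratios are log2 values, CD34+ over CD34-, after background correction with an offset of 50 and loess, averaged over replicates and given ± SD. The p-values are from limma, with Benjamini-Hochberg adjustment over all 20070 genes and probes, and an adjusted p under 0.05 counted as passing. Of the 10 genes, 2 passed as higher, beside 5.42% of all genes tested, and 1 as lower, beside 6.63%. In either direction 12.1% of all genes passed, 1088 higher and 1331 lower. At an unadjusted p under 0.05, 4 of the 10 stood out, beside 30.7% of all. The median ratio of the 10 was 0.0031, and that of all genes 0.0042. Intensities of the populations did not overlap over the 3 replicates for 3 of the 10, beside 16.2% of all genes, and the ratio had the same sign on all 6 arrays for the same 3, beside 32.2%.

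**Figure D1:**
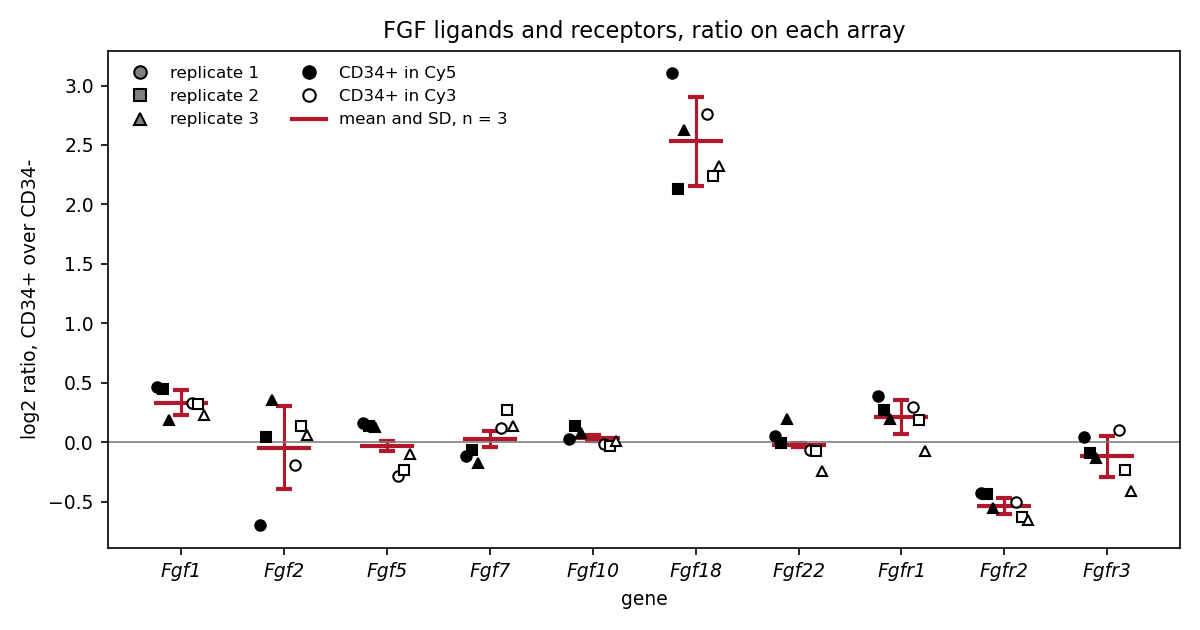
Log2 ratio of CD34+ over CD34- cells (vertical axis) for each of the 10 FGF genes on each of the 6 arrays. Shapes mark replicates, filled points have CD34+ in Cy5 and open points CD34+ in Cy3, and the bars give the mean and SD of 3 replicates. All 6 points of Fgf18 lie between 2.13 and 3.10, all 6 of Fgf1 above 0 and all 6 of Fgfr2 below 0.

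Fgf18, a ligand of the bulge of resting hair follicles, was 5.77-fold higher in CD34+ cells. Its log2 intensity was 11.11, 10.18 and 10.38 in CD34+ cells of replicates 1, 2 and 3, against 8.17, 7.99 and 7.91 in CD34- cells. The lowest CD34+ value lay well above the highest CD34- value, and the replicates differed more among CD34+ cells, over a range of 0.93, than among CD34- cells, over 0.27. The log2 ratio was 2.93, 2.18 and 2.47 in the replicates, a mean of 2.53 ± 0.38 (SD, n = 3), with a 95% interval of 2.11 to 2.95. Its adjusted p in limma was 0.0103, all 6 arrays showed the rise, and it ranked 27 from the top of the 20070 genes and probes. Rises of at least 2-fold that passed made up 1.27% of all genes, and such falls 1.20%. The 2 dye orientations gave means of 2.62 with CD34+ in Cy5 and 2.44 with CD34+ in Cy3. In the authors' deposited ratios, which carry no offset, the mean was 2.81, and the software's own p was under 0.01 on 6 of 6 arrays. Without replicate 1 the ratio was 2.33 and its adjusted p 0.0902, a setting in which limma passed 0 genes of the array, with 4617 at an unadjusted p under 0.05.

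The genes most like Fgf18 in the 6 ratios, by Euclidean distance among 9316 other named genes, were Cxcl14, Sfrp1 and Sema3e. Cxcl14, a chemokine of epithelia, was at a distance of 0.805 and at 2.28 ± 0.36 (SD, n = 3, limma adjusted p 0.0117). Sfrp1, a secreted antagonist of Wnt ligands, was at a distance of 0.975 and at 2.44 ± 0.13 (adjusted p 0.00355). Sema3e, a secreted guidance factor of the semaphorin family, was at a distance of 1.03 and at 2.50 ± 0.57 (adjusted p 0.0168). The likeness rests on the size of the ratio on these arrays and is a description.

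Fgf1, or acidic FGF, a ligand that can bind every FGF receptor, was slightly higher in CD34+ cells. Its log2 intensity was 6.79, 6.86 and 6.94 in CD34+ cells, against 6.39, 6.47 and 6.73 in CD34- cells. The populations did not overlap, but the gap between the lowest CD34+ and the highest CD34- value was small. The log2 ratio was 0.40, 0.38 and 0.21, a mean of 0.33 ± 0.10 (SD, n = 3), with a 95% interval of 0.17 to 0.49 and an adjusted p of 0.0412, and all 6 arrays were above 0. Both populations were bright only a little above the offset, which is 5.64 on this scale, so the ratio is understated. The mean was 0.76 in the authors' deposited ratios, with a software p under 0.01 on 4 of 6 arrays. The call was lost in 5 of 14 other settings, with adjusted p-values of 0.173 without replicate 1, 0.230 without replicate 2 and 0.306 with the populations as unpaired channels, and its sign was kept in all 14.

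Fgf2, or basic FGF, did not differ beyond its spread, and its replicates differed more than its populations. Its log2 intensity was 7.45, 7.10 and 6.43 in CD34+ cells, against 7.89, 7.01 and 6.22 in CD34- cells. Both populations were brightest in replicate 1 and dimmest in replicate 3, over a range of 1.02 in CD34+ and 1.67 in CD34- cells, wider than for any other of the 10 genes. The log2 ratio was -0.44 in replicate 1, 0.09 in replicate 2 and 0.21 in replicate 3, a mean of -0.05 ± 0.35 (SD, n = 3), with an interval of -0.44 to 0.34 and an adjusted p of 0.855. By the file headers, though not by the labels, the arrays of replicate 3 were also read with another version of the scanner software. The part of that in the Fgf2 level was not tested. The sign of the mean turned in 5 of 14 settings.

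Fgf7 and Fgf10, which dermal cells make for the epithelium, lay close to the offset in both populations. Fgf7 had log2 intensities of 6.44, 6.42 and 6.32 in CD34+ cells, against 6.44, 6.32 and 6.34 in CD34- cells. Fgf10 had 6.39, 6.42 and 6.57 in CD34+ cells, against 6.39, 6.37 and 6.53 in CD34- cells. The populations overlapped in both genes. The ratio was 0.03 ± 0.066 for Fgf7 (SD, n = 3, adjusted p 0.746) and 0.03 ± 0.025 for Fgf10 (adjusted p 0.655), with intervals of -0.11 to 0.16 and -0.08 to 0.15. All 6 arrays marked both genes as well above background in both populations, a mark of signal over the local background and not of expression by itself.

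Fgf5, an FGF that ends the growth phase of hair, and Fgf22, an FGF known from the inner root sheath, were dim too. Fgf5 was marked well above background on 1 of 6 CD34+ and 3 of 6 CD34- readings, and Fgf22 on 5 of 6 in each. Fgf5 had log2 intensities of 5.89, 5.84 and 6.02 in CD34+ cells, against 5.96, 5.88 and 6.004 in CD34- cells. Fgf22 had 6.36, 6.28 and 6.12 in CD34+ cells, against 6.37, 6.31 and 6.15 in CD34- cells. The populations overlapped in both genes, and both lay little above the offset of 5.64. The ratio was -0.03 ± 0.041 for Fgf5 (SD, n = 3, adjusted p 0.671) and -0.02 ± 0.017 for Fgf22 (adjusted p 0.770), with intervals of -0.16 to 0.09 and -0.14 to 0.09. With the offset, intervals of genes this dim bound the measured ratio and not the change in RNA.

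In Fgf5, Fgf7 and Fgf22 the ratio depended more on the dye than on the population. Fgf5 averaged 0.14 with CD34+ in Cy5, where 3 of 3 arrays were above 0, and -0.21 with CD34+ in Cy3, where 0 of 3 were. Fgf7 showed the reverse, with -0.12 and 0 of 3 above 0 against 0.18 and 3 of 3. Fgf22 leaned as Fgf5 did, with 0.08 and 2 of 3 above 0 against -0.13 and 0 of 3. The orientation means also differed in sign for Fgf10, at 0.079 and 3 of 3 above 0 against -0.012 and 1 of 3. For Fgf2 they were -0.098 with CD34+ in Cy5 and 0.0036 with CD34+ in Cy3, with 2 of 3 above 0 in each. Each mean over both orientations lay close to 0.

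**Figure D2:**
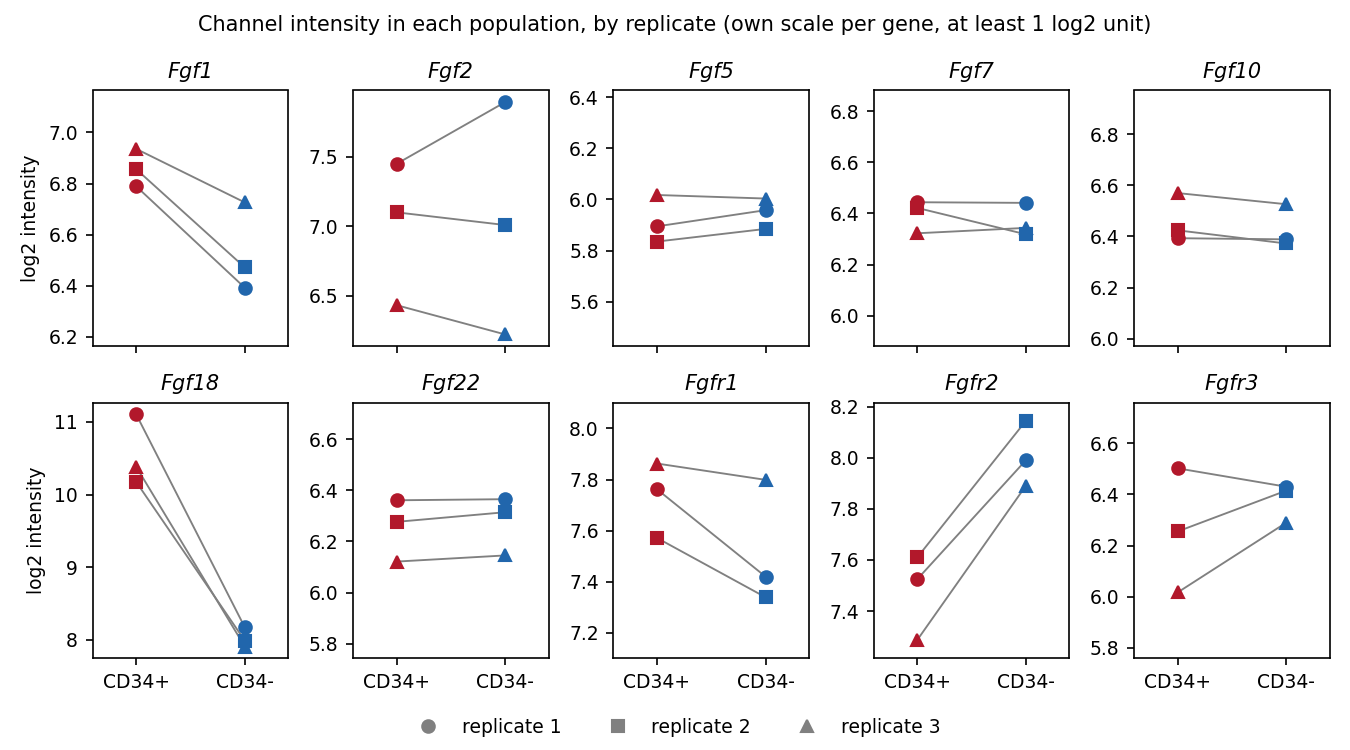
Log2 intensity (vertical axis, own scale for each gene) in CD34+ cells on the left and CD34- cells on the right of each panel, with a line joining the populations of a replicate. The populations are apart for Fgf18, Fgf1 and Fgfr2, and Fgf2 spreads by replicate in both.

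Fgfr2, whose epithelial splice form receives Fgf7 and Fgf10, was 1.45-fold lower in CD34+ cells. Its log2 intensity was 7.52, 7.61 and 7.29 in CD34+ cells, against 7.99, 8.14 and 7.89 in CD34- cells. The highest CD34+ value lay below the lowest CD34- value. The log2 ratio was -0.47, -0.53 and -0.60, a mean of -0.53 ± 0.069 (SD, n = 3), with a 95% interval of -0.67 to -0.40 and an adjusted p of 0.0176 in limma, and all 6 arrays were below 0. In the authors' deposited ratios the mean was -0.73, with a software p under 0.01 on 6 of 6 arrays. The call was lost in 3 of 14 settings. Its adjusted p was 0.0920 when replicate 1 was left out, at a ratio of -0.57, 0.0863 when replicate 2 was, at -0.53, and 0.106 with the populations as unpaired channels.

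Fgfr1, the receptor known mainly from mesenchymal cells, leaned the other way without passing. Its log2 intensity was 7.76, 7.57 and 7.86 in CD34+ cells, against 7.42, 7.34 and 7.80 in CD34- cells. Each replicate was brighter in CD34+ cells, but the populations overlapped. The log2 ratio was 0.34, 0.23 and 0.06, a mean of 0.21 ± 0.14 (SD, n = 3), with an interval of 0.02 to 0.40 and an adjusted p of 0.132, and 5 of 6 arrays were above 0. It passed in 3 of 14 settings, at an adjusted p of 0.0389 without replicate 3 and 0.0475 with CD34+ in Cy5 only. The remaining setting, with the software version as a term, gave 0.0420. Only replicate 3 had another version, so that term and replicate 3 cannot be told apart. The ratio of Fgfr2 was below that of Fgfr1 in every replicate, by -0.81, -0.77 and -0.67.

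Fgfr3, a receptor of keratinocytes that Fgf18 can activate, did not pass. Its log2 intensity was 6.50, 6.26 and 6.02 in CD34+ cells, against 6.43, 6.42 and 6.29 in CD34- cells. The populations overlapped, and the CD34+ values spread over 0.49 against 0.14 for CD34- cells. The log2 ratio was 0.07, -0.16 and -0.27, a mean of -0.12 ± 0.18 (SD, n = 3), with an interval of -0.34 to 0.10 and an adjusted p of 0.388. Like the dim ligands it lay little above the offset, and the mean was -0.42 on the authors' deposited ratios and -0.35 with an offset of 0, neither of which passed. It ran from -0.22 without replicate 1 to -0.04 without replicate 3. A separate probe for an Fgfr3 pseudogene, not counted among the 10, was at 0.26 ± 0.14 with an adjusted p of 0.0888. Other FGF-related probes, not matched by name to the 10 genes or the pathway lists, were at 0.11 ± 0.11 (adjusted p 0.303) and 0.06 ± 0.066 (adjusted p 0.499).

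**Figure D3:**
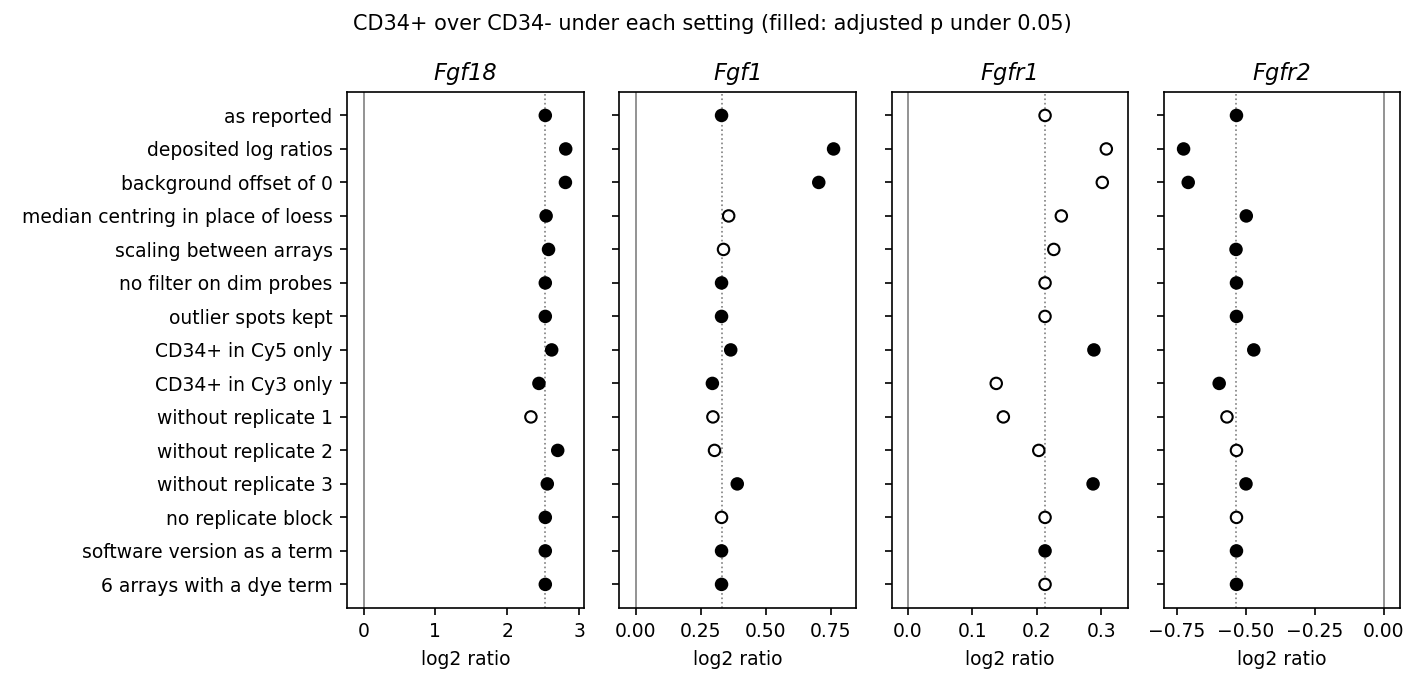
Log2 ratio of CD34+ over CD34- cells (horizontal axis) of Fgf18, Fgf1, Fgfr1 and Fgfr2 as reported and under 14 other settings, with filled points where the adjusted p was under 0.05. Fgf18 stays between 2.33 and 2.81 and Fgfr2 between -0.73 and -0.47, and Fgf1 is highest where the ratios carry no offset.

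Other genes of the pathway were read from 7 lists by role, with 92 genes in all, of which 82 were matched by name to a probe and 79 tested. Of these 79, 6 passed as higher in CD34+ cells, or 7.59% beside 5.42% of all genes, and 3 as lower, or 3.80% beside 6.63%. At an unadjusted p under 0.05 there were 25, or 31.6% beside 30.7% of all, and the median was -0.011 beside 0.0042. These shares lie near those of all genes. Among 10 other FGF ligands 0 passed, with 2 at an unadjusted p under 0.05, and the smallest adjusted p was that of Fgf23, a bone-derived hormone, at 0.19 ± 0.048 (SD, n = 3, adjusted p 0.0759). Among 4 intracellular FGF homologous factors 0 passed, with 0 at an unadjusted p under 0.05, and Fgf14, a partner of sodium channels, was at 0.15 ± 0.21 (adjusted p 0.362). Among 4 other receptors and coreceptors 0 passed, with 0 at an unadjusted p under 0.05, and Klb, the coreceptor of endocrine FGFs, was at 0.24 ± 0.36 (adjusted p 0.351). Both Klb and Fgf14 took their means mainly from replicate 3, without which Klb was at 0.033 and Fgf14 at 0.028.

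Of 21 heparan sulfate and carrier genes tested, 4 rose in CD34+ cells, or 19.0% beside 5.42% of all genes, and 2 fell, or 9.52% beside 6.63%. Their median was 0.028 beside 0.0042, and nothing here tests whether this list differs from other genes. Sdc1 and Sdc2, cell-surface proteoglycans of the syndecan family, rose by 0.72 ± 0.19 and 0.69 ± 0.24 (SD, n = 3, adjusted p 0.0213 and 0.0302). Hspg2, the basement membrane proteoglycan perlecan, rose by 0.65 ± 0.15 on its brightest probe (adjusted p 0.0200), while its other probe was at 0.04 ± 0.069 (adjusted p 0.668). Ext1, a polymerase of heparan sulfate named here because it completed the count, rose by 0.32 ± 0.097 (adjusted p 0.0415). Fgfbp1, a carrier that releases FGFs from the matrix, fell by 1.08 ± 0.27 (adjusted p 0.0195), and Gpc1, a glypican of the cell surface, fell by 0.62 ± 0.094 (adjusted p 0.0167).

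Downstream of the receptors, 1 of 20 adaptor and MAP kinase genes rose and 1 fell, 5.00% each, beside 5.42% and 6.63% of all genes, with a median of -0.066. Sos1, the exchange factor that loads Ras, rose by 0.46 ± 0.050 (SD, n = 3, adjusted p 0.0191). Of 9 feedback inhibitors and modulators 0 passed, with 3 at an unadjusted p under 0.05 and a median of -0.011. Ratios in this list ran from -0.68 to 0.026. The smallest adjusted p was that of Spry2, an inhibitor of receptor signalling, at -0.21 ± 0.069 (adjusted p 0.0712). Of 11 genes known as transcriptional targets 1 rose and 0 fell, with a median of -0.10, and Egr1, an early response factor, rose by 0.73 ± 0.31 (adjusted p 0.0401), or by 0.43 with median centring in place of loess. The 2 lowest targets, picked out after their values were seen, did not pass, at -1.29 ± 0.67 for Fosl1, an AP-1 subunit (adjusted p 0.0553), and at -1.07 ± 0.55 (adjusted p 0.0548) for the other. Over the 79 pathway genes, limma passed 0 without replicate 1 (16 at an unadjusted p under 0.05) and only Fgfbp1 without replicate 2, and 0 with the populations as unpaired channels (14 at an unadjusted p under 0.05).

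**Figure D4:**
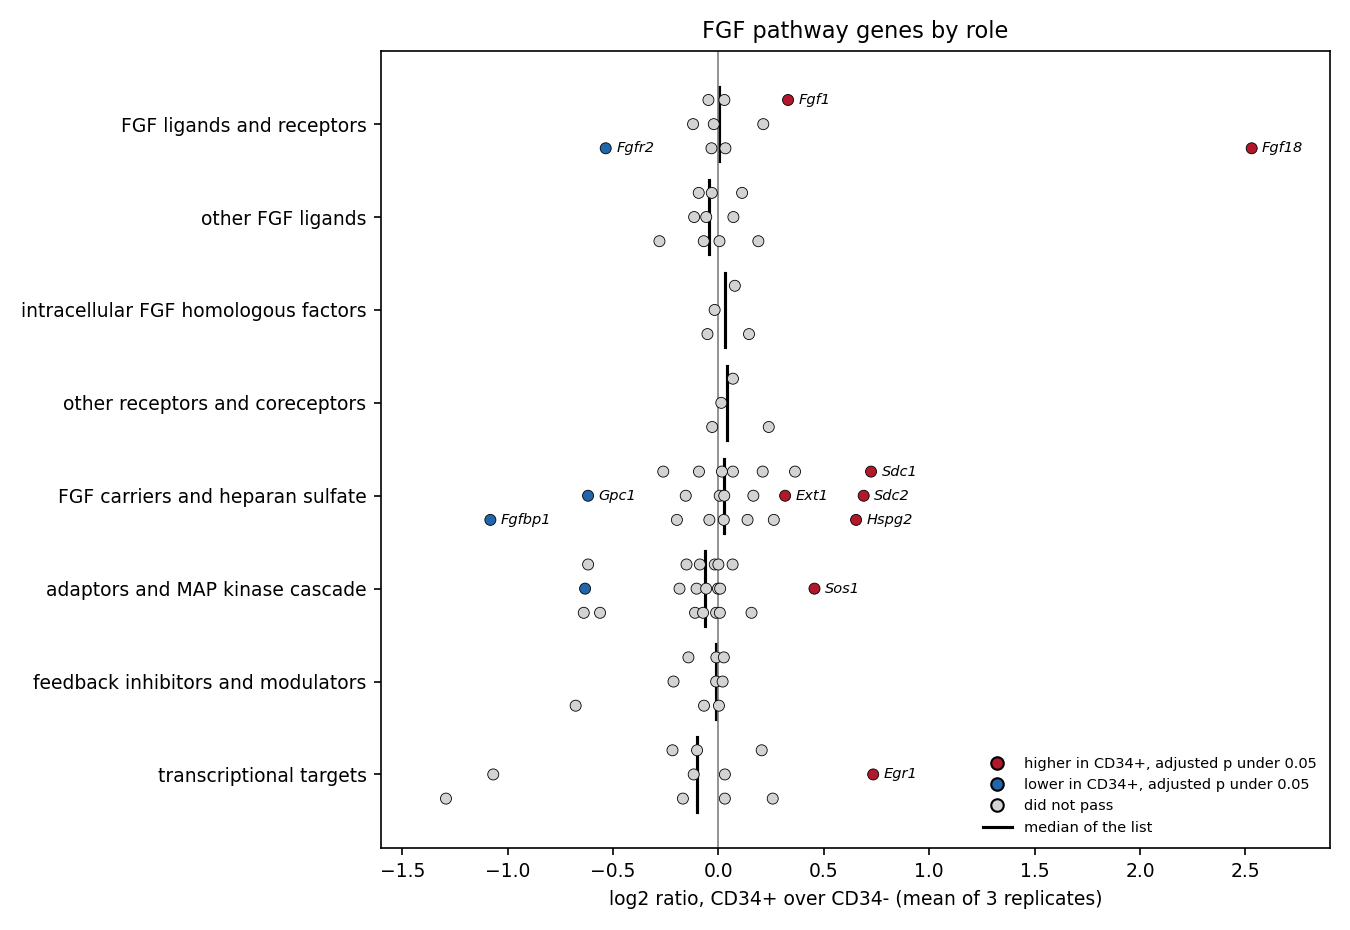
Log2 ratio of CD34+ over CD34- cells (horizontal axis, mean of 3 replicates) of the 10 FGF genes and of 79 other pathway genes by role. Red and blue points passed as higher and lower, and grey points did not pass. Names are given for genes that passed and are described in the text, and a vertical bar is the median of a list. Fgf18 lies far to the right of every other point.

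The sort and the other cells it could hold were checked with the same fit. Cd34, the gene of the sort marker, had a log2 ratio of 5.84 ± 0.43 (SD, n = 3, adjusted p 0.00362), and Itga6, carried by both populations, was at -1.18 ± 0.27. Of 5 basal keratinocyte markers 2 rose, the hemidesmosome genes Col17a1 at 0.67 ± 0.14 and Itgb4 at 0.38 ± 0.094, and 2 fell, Itga6 and the keratin Krt14, at -1.11 ± 0.41. Of 4 suprabasal markers 1 rose, Lor, a cornified envelope protein, at 1.51 ± 0.18, and 1 fell, the keratin Krt1, at -2.28 ± 1.10. Summed intensities were 41823 to 54505 in CD34+ cells against 69008 to 76953 in CD34- cells for the basal markers. For the suprabasal markers they were 6393 to 16049 in CD34+ cells against 4201 to 7214 in CD34- cells, and within replicates the CD34+ sum was 1.52, 1.47 and 2.22 times the CD34- sum. Such sums weigh the brightest genes most. Of the basal markers 3 lay above 0 and 2 below, with a median log2 ratio of 0.046. Of the suprabasal markers 2 lay above 0 and 2 below, with a median of 0.13. The part of suprabasal cells in the FGF values was not tested. Of 8 bulge markers 7 rose, or 87.5% beside 5.42% of all genes, with Tbx1, a T-box factor, at 4.61 ± 0.31. The 8 include Cd34, whose rise was fixed by the sort. The bulge sums, Cd34 included, ranged from 136119 to 175287 in CD34+ cells, against 44087 to 57427 in CD34- cells. Beside Fgf18 these move with the population, and their part in its value was not tested. Of 10 fibroblast and dermal papilla markers 2 rose, Fbln1, a matrix protein, at 1.80 ± 0.23 and Col1a2, a collagen chain, at 1.02 ± 0.12. That is 20% beside 5.42% of all genes, and 8 of the 10 lay above 0 and 2 below, with a median of 0.14. The sums over these markers were 2389 to 3748 in CD34+ cells, against 1548 to 1843 in CD34- cells, and their part in the FGF values was not tested. Of 6 melanocyte markers 2 rose, or 33.3% beside 5.42%, Mitf at 0.99 ± 0.32 and Dct at 0.79 ± 0.29. Of the 6 melanocyte markers 4 lay above 0 and 2 below, with a median of 0.037. Their sums were 840 to 1235 in CD34+ cells against 658 to 894 in CD34- cells. Endothelial and T cell markers had 0 of 6 and 0 of 5 that passed. Langerhans cell markers had 1 of 6, or 16.7% beside 6.63% of all genes, Tyrobp, which fell by 0.24 ± 0.046. All 6 Langerhans cell markers lay below 0, with a median of -0.27. Within replicates the CD34+ sum was 1.04, 1.01 and 1.14 times the CD34- sum for endothelial markers, 1.07, 1.13 and 1.28 times for T cell markers and 1.08, 0.613 and 0.876 times for Langerhans cell markers. Intensities here carry the offset, so none of these markers can read 0. In sorted bulk samples, fewer cells of a type and less RNA per cell cannot be told apart.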

How the data were processed

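Gene expression was read from 6 arrays of 2 colours, 3 biological replicates with a technical dye exchange each. The labels number replicates 1 and 2, and the remaining 2 arrays, of opposite dyes, were taken as replicate 3. Nothing in the labels says whether a replicate was 1 animal. The deposited intensity of each spot and its local background came from Agilent Feature Extraction, version A.6.1.1 for replicate 3 and A.7.5.1 for the others, per the file headers. The labels instead name the same version for all arrays, and the headers were followed for the version of this software. The authors made log10 ratios with this software, background-subtracted and dye-normalised, together with a p-value per spot from its error model, as the file headers record. The series' value table holds the same ratios with the sign turned (largest deviation 0), and its column medians ran from 0 to 0.00274. No genome build is given in the sources used here.

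With limma 3.58.1 in R 4.3.3, intensities were background-corrected (normexp, offset 50) and loess-normalised, and log2 ratios were turned to CD34+ over CD34-. The 2 arrays of a replicate were averaged. Probes had to stand well above background in either population in 2 or more of 3 replicates. This left out 472 of 20868 probes, and 182 more had outlier marks. The test against 0 used lmFit and eBayes, and the brightest probe stood for its gene. Channel intensities were scaled between arrays with Aquantile. Both populations of a replicate share their arrays, and their channel deviations correlated with r of 0.799, 0.718 and 0.811. Probes were named by RefSeq accession (8947), a list entry matched by description (30), a symbol (377) or a synonym (363) in a table of assembly GRCm38.p6, and 11151 stayed unnamed.

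Named were the 10 genes, from each pathway list up to 3 rises and 3 falls or else the smallest adjusted p, from each marker list up to 2 each way, and the 3 genes nearest to the most changed of the 10. The values of 1 pathway gene that passed are not reported here. The genes, lists and alternatives were chosen with earlier results of these data known. Between 92.9% and 97.7% of probes were well above background per population and array, pairs of arrays correlated with r of 0.505 to 0.910, and the number of arrays limits the precision. The fit was tested on simulated data, with noise drawn separately for each array and so without the pairing of the real arrays. Its criterion was the median recovered ratio, and no rate of false calls was taken. Alternatives changed the ratios, offset, normalisation, filter, outlier marks, dye orientation, replicates, pairing and a term for software version.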

Additional observations from a re-analysis of the deposited data

How the results depend on the processing

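Of the 14 alternatives, the sign of Fgf18, Fgf1, Fgfr1, Fgfr2 and Fgfr3 was kept in all. Genes passing as higher and lower, 1088 and 1331 as reported, became 280 and 268 with no replicate block (populations as unpaired channels), 2581 and 2741 with the software version as a term, and 1959 and 2301 with 6 arrays and a dye term. Leaving out a replicate gave 0 to 2051 higher and 0 to 2168 lower. The 0 in limma came without replicate 1, where 4617 had an unadjusted p under 0.05 on fewer replicates. With median centring or scaling between arrays 1 of the 10 FGF genes passed as higher. With no replicate block 1 was higher and 0 lower (3 at an unadjusted p under 0.05). Leaving out a replicate gave 0 to 3 higher and 0 to 1 lower. Of the 79 pathway genes, 0 were higher and 0 lower with no replicate block, and 12 higher and 13 lower with the software version as a term. Lower calls were 6 on the deposited ratios, with an offset of 0 or with median centring, 8 with CD34+ in Cy5 only and 10 with 6 arrays and a dye term. Leaving out a replicate gave 0 to 9 higher and 0 to 12 lower. The term for software version sets replicate 3 apart from the others, so it cannot be told apart from that replicate itself. The causes were not tested.

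Signs turned only in ligands that never passed. Fgf2 was at 0.0845 on the deposited ratios, 0.0536 with an offset of 0, 0.0268 with median centring and 0.0036 with CD34+ in Cy3 only, and ran from -0.18 to 0.15 when a replicate was left out. Fgf5 was at 0.0599 with median centring and 0.14 with CD34+ in Cy5 only, and Fgf22 at 0.0495 and 0.0818 in the same settings. Fgf7 was at -0.12 with CD34+ in Cy5 only and ran from -0.0093 to 0.0529 when a replicate was left out, and Fgf10 at -0.012 with CD34+ in Cy3 only. Of 392 further values of 28 other named genes, 311 kept their side of the threshold, 75 lost a call, 6 gained one and 0 changed sign. Signal near the offset limits the 4 dimmest ligands.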
